A study of Mus musculus with 8 samples.

Results

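The mouse kidney line mK3 was described on its own, from 4 of the 8 samples of the series: 3 RNA libraries and 1 library of ATAC-seq, an assay in which a transposase cuts open chromatin. The members were chosen by their labels. The labels describe mK3 as metanephric mesenchymal cells that have not been induced, of wild-type (wt) genotype and without treatment, kept in DMEM with 10% fetal bovine serum under 5% CO2 at 37 °C. They do not say how the line was made or whether it is 1 clone. They number the RNA libraries as duplicates without naming separate cultures, so every spread given here is between these libraries and may be technical. The libraries were strand-specific and made from total RNA after removal of ribosomal RNA.

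The metanephric mesenchyme is the embryonic tissue that condenses around the ureteric bud. Induced by the bud, part of it turns into epithelium and forms nephrons, while other cells of the region become stroma. Nephron progenitors are marked by the transcription factors Six2, Wt1, Pax2, Sall1, Eya1 and Osr1 and by the paralogous Hox genes of group 11, and stromal progenitors by Foxd1. Mature miRNAs are short RNAs that repress messenger RNAs paired to their seed, bases 2 to 8.

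The table held 138539713 to 146821657 counts per library, of which 133899125 to 141972545 were on gene features, 4627392 to 5263170 on mature miRNAs and 10986 to 15019 on circular RNAs. Levels are CPM, the counts of a feature per 1000000 counts of its class in that library. They are shares of reads and are not divided by transcript length, so the ranks below order genes by reads. A long transcript thus ranks higher than a short one of equal abundance. How reads shared between genes were counted is not given, and that can change ranks as well. A count of 0 in a library allows up to 3 counts, or 0.0211 to 0.0224 CPM for genes and 0.570 to 0.648 CPM for miRNAs, for counting error only. Listed zeros need care beyond that limit: 475 of 16080 gene features with at least 100 counts in 1 library were at 0 in another.

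The miRNA reads of mK3 were concentrated on few sequences. The mature sequences of the leading miRNAs that RefSeq (GRCm38.p6) holds are shown 5′ to 3′ with the seed in capitals, because the seed groups them into families.
miR-21a-5p: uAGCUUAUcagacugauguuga
miR-99b-5p: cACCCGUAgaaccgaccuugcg
miR-100-5p: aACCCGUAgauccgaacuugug
miR-99a-5p: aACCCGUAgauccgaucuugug
miR-148a-3p: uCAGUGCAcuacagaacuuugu
miR-125b-5p: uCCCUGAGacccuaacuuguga
miR-10a-5p: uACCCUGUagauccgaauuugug
let-7i-5p: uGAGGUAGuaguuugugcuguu
let-7c-5p: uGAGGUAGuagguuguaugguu
let-7f-5p: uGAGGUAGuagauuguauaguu
miR-26a-5p: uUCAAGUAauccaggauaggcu
miR-129-5p: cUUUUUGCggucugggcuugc
miR-129b-3p: cAAGCCCAgaccgcaaaaagauu

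A single miRNA, miR-21a-5p, took 46.0%, 41.1% and 42.5% of miRNA counts in libraries 1, 2 and 3 (43.2% ± 2.56, SD, n = 3). It is read from chr11:86584120-86584141 on the minus strand, inside the span of the gene Vmp1. miR-143-3p, a miRNA known from smooth muscle and other mesenchymal cells, was next with 92647, 87057 and 83648 CPM, so the 2 miRNAs did not overlap in any library. The 10 highest miRNAs held 74.9% ± 0.967 (SD, n = 3) of miRNA counts and the 100 highest 98.5% ± 0.0673. Of 1196 miRNA names, 644 were above 0 in all 3 libraries, 145 reached 100 CPM in all 3 and 13 reached 10000 CPM.

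**Figure D1:**
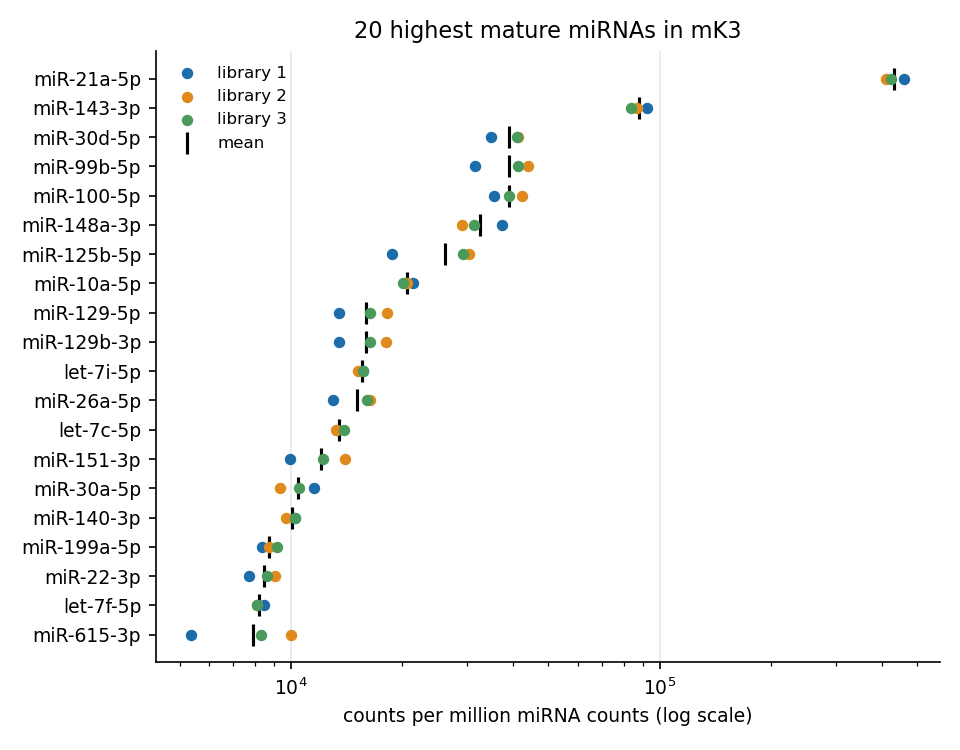
The 20 highest mature miRNAs in CPM of miRNA counts on a log axis, with 1 point per library and a bar at the mean. miR-21a-5p stands alone at 410590 to 460256 CPM, and miR-615-3p and miR-125b-5p show library 1 furthest below the other libraries.

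The miRNAs were also grouped by seed. The grouping leaves out names without a sequence here, among them miR-143-3p and miR-30d-5p at ranks 2 and 3, so it gives no full order of seeds. The seed ACCCGUA, shared by miR-99b-5p, miR-100-5p and miR-99a-5p, summed to 70702, 90847 and 84614 CPM (82054 ± 10314, SD, n = 3), with library 1 lowest. The 9 names with the let-7 seed GAGGUAG, a family known for restraining growth and for promoting differentiation, summed to 56062 ± 994 CPM, and their 3 libraries lay between 55158 and 57127. None of the 9 dominated: let-7i-5p had 15573 ± 302 CPM, let-7c-5p 13529 ± 377 and let-7f-5p 8218 ± 229. Lin28a and Lin28b, whose proteins block let-7 maturation, were listed at 0 in all 3 libraries.

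The miR-148a-3p seed CAGUGCA summed to 34443 ± 4456 CPM and the miR-125 seed CCCUGAG to 28938 ± 6954 CPM (SD, n = 3). The miR-10 seed ACCCUGU came almost wholly from miR-10a-5p, which had 21404, 20692 and 20116 CPM and is encoded within the span of Hoxb3 on chromosome 11. Hoxb3 itself had 3.31, 2.90 and 2.06 CPM of gene counts. The 2 classes have separate denominators, so these values stand side by side and give no ratio.

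Some pairs of miRNA names are complementary to each other and carried almost the same counts. miR-129-5p had 65368, 95893 and 76001 counts and miR-129b-3p 65242, 95702 and 75842, a difference of at most 0.209%. These sequences are complementary over 20 bases. A like pair was miR-24-3p with 21864, 21222 and 17667 counts and miR-3074-5p with 21842, 21211 and 17654. In all, 4 pairs of names at 100 CPM or more were complementary over at least 15 bases, and their counts differed by at most 1.27%. The counts of each pair therefore cannot be assigned to 1 member from this table.

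Each miRNA hairpin gives a 5p and a 3p arm, and usually 1 of them is kept. Among 46 hairpins with both arms above 0 in every library and the higher arm at 1000 CPM or more, 5 had an arm in 1 of the complementary pairs above. Of the other 41, the 5p arm was higher in 28 and the 3p arm in 13, and the arms were over 10-fold apart in 33. An arm made from more than 1 locus was counted whole at each of its hairpins here. For example, miR-125b-5p entered with 26201 CPM for both Mir125b-1 and Mir125b-2. At such hairpins the lead of the shared arm can be overstated, so these tallies are not per locus. miR-21a-5p exceeded miR-21a-3p, at 24.1 CPM, by 14.14 ± 0.16 on the log2 scale (SD, n = 3), and miR-148a-3p exceeded its 5p arm, for which the log2 ratio of 5p to 3p was -5.37 ± 0.19. Only 3 hairpins had arms within 2-fold of each other, and let-7d was one, with 1238 CPM for the 5p arm and 1000 CPM for the 3p arm. Of the genes that make and carry miRNAs, 12 of 15 reached 1 CPM in every library (80%, against 50.3% of all protein-coding genes). They were led by Ago2, the slicing Argonaute, at 292 ± 45.6 CPM and Drosha, the nuclear processing enzyme, at 187 ± 31.1 CPM.

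The 4 marker genes of the line were all high. Thbs2, a matricellular thrombospondin, had 2911, 2553 and 2533 CPM and had rank 9 among nuclear-encoded protein-coding genes by reads. Lox, which cross-links collagen and elastin, had 1602, 1517 and 1426 CPM. Col1a2, a chain of type I collagen, had 1106, 841 and 897 CPM. Prrx1, a homeobox factor of mesenchyme, had 730, 712 and 685 CPM with a coefficient of variation (CV, the SD over the mean) of 0.0319. Library 1 was the highest of the 3 for each marker, and the lowest marker value in any library was 685 CPM.

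Other matrix genes accompanied them. The list of 25 genes of the fibrillar matrix includes the markers Thbs2, Lox and Col1a2, so its counts are not separate from theirs. Of the 25, 23 reached 1 CPM in every library and 20 reached 100 CPM, against 50.3% and 8.36% of all protein-coding genes. The median of these 25 was 566 CPM, beside 1.64 CPM over all protein-coding genes. Fn1, fibronectin, had 2979, 2358 and 2459 CPM. Col5a2 had 2151, 1656 and 1488 CPM, and Tnc, tenascin C, had 1940, 1623 and 1681 CPM. Library 1 was highest in 21 of the 24 genes above 0 in all libraries, while for all protein-coding genes above 0 in all libraries it was highest in 48.6%. Eln, elastin, was at 0 in all 3 and Lum, lumican, at 0.821 CPM.

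**Figure D2:**
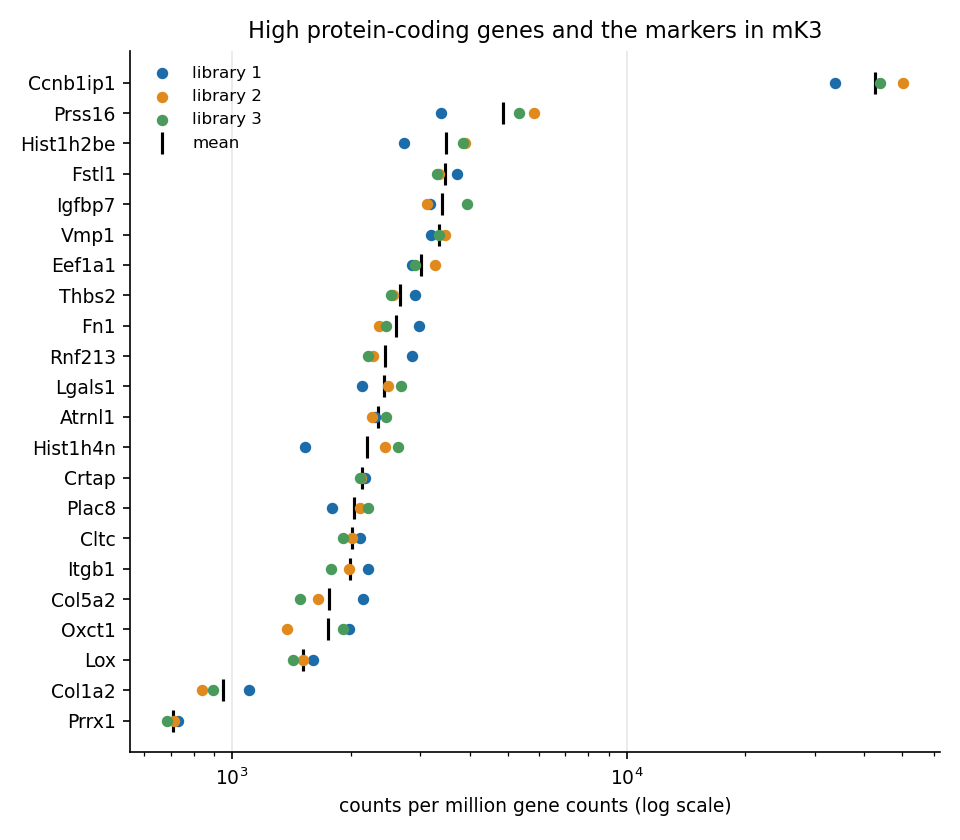
Of the 20 highest nuclear-encoded protein-coding genes, 19, and the markers Lox, Col1a2 and Prrx1 in CPM of gene counts on a log axis, with 1 point per library and a bar at the mean. Ccnb1ip1 stands apart at 33819 to 50163 CPM, and library 1 lies lowest for the histone genes and highest for Thbs2, Fn1 and Col5a2.

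Basement membrane genes were present but more uneven. Of 22, 15 reached 1 CPM in every library and 7 reached 100 CPM (68.2% and 31.8%, against 50.3% and 8.36% of all protein-coding genes). Hspg2, perlecan, had 1522, 863 and 961 CPM, Col4a5, a collagen IV chain, had 1164, 818 and 818 CPM, and Col4a1, another, had 1100, 464 and 477 CPM. Library 1 lay above the other 2 in all 3 genes. Lama1, a laminin chain of early epithelia, was at 0. Among 18 integrins, receptors for this matrix, 11 reached 1 CPM in every library (61.1%, against 50.3% of all protein-coding genes). The shared subunit Itgb1 took 1988 ± 213 CPM, Itgav 1120 ± 31.3 CPM and Itga5, a fibronectin receptor subunit, 163 ± 6.68 CPM. Itga8, the integrin of metanephric mesenchyme that binds nephronectin, had 64, 0 and 40 counts.

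Nephron progenitor genes were mixed. Of 21, 8 reached 1 CPM in every library (38.1%, against 50.3% of all protein-coding genes), none reached 100 CPM in every library and 9 were at 0 in all 3 (42.9%, against 31.3%). These shares lie near those of all genes, so the members are described 1 by 1. The highest was Hoxa11, with 53.8, 427 and 48.2 CPM, followed by Hoxa10, with 70.8, 69.4 and 74.5 CPM. Wt1, Pax2, Sall1, Meox1 and Hoxd11 were among the zeros. Six2 had 59, 15 and 61 counts, or 0.326 CPM on average, and Cited1 had 6, 0 and 0 counts. Eya1, a transcriptional coactivator, had 9.89, 10.5 and 8.84 CPM. Osr1, an early factor of the intermediate mesoderm, had 10.7, 10.5 and 11.2 CPM, and Gdnf, the ligand that draws out the ureteric bud, had 14.7, 12.4 and 13.3 CPM. Those 3 genes were at a like level in every library. Of the progenitor markers named at the start, Wt1, Pax2 and Sall1 were thus listed at 0 and Six2 was below 1 CPM, while Hoxa11, Eya1 and Osr1 were present.

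Genes of the renal stroma were higher as a list. In every library 14 of 20 reached 1 CPM, or 70%, against 50.3% of all protein-coding genes. Their median was 9.39 CPM, beside 0.160 CPM for nephron progenitor genes and 1.64 CPM over all protein-coding genes. Ntn1, netrin 1, had 691 ± 164 CPM, the protocadherin gene Fat4 254 ± 20.9 and Pdgfrb, a PDGF receptor, 185 ± 18.4 (SD, n = 3). Foxd1 had 2.47 CPM, and Aldh1a2 and Tcf21 were at 0. The stroma list shares Pdgfra and Pdgfrb with the general mesenchyme list and Dcn with the fibrillar matrix list, so these lists are not separate. General mesenchyme genes were present in 18 of 20 cases, with Ddr2, a collagen receptor, at 839 ± 43.9 CPM, Cdh2, N-cadherin, at 474 ± 30.5, and Twist2 at 159. Thy1 was at 0. No new cell type name is given to the line here.

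Markers of other cell types differed by list. Of all protein-coding genes, 50.3% reached 1 CPM in every library. Epithelial genes reached 1 CPM in every library in 2 of 20 cases, Cgn at 14.3 CPM and Spint1 at 3.29 CPM, and Cdh1, Krt8, Krt18 and the claudins Cldn3, Cldn4, Cldn6 and Cldn7 were at 0. The summed level of the epithelial list was 17.4 to 22.7 CPM, that of endothelial genes 17.9 to 22.9 CPM and that of leukocyte genes 1.77 to 3.56 CPM. Among endothelial genes 3 of 13 reached 1 CPM in every library, the receptor genes Flt1 at 15.4, Tek at 1.72 and Kdr at 1.14 to 1.82 CPM, and Cdh5, Emcn and Erg were at 0. No leukocyte gene of 12 reached 1 CPM in every library, and Cd3e and Itgam were at 0. Skeletal muscle genes summed to at most 1.42 CPM. Genes of kidney tubules reached 1 CPM in 7 of 15 cases and summed to 122 to 144 CPM, with Ass1, an enzyme of arginine synthesis, at 64.8 ± 6.98 CPM and Cubn, an endocytic receptor, at 36.7 ± 8.66. Podocyte genes did so in 5 of 12 cases and summed to 244 to 384 CPM. The cytoskeletal adaptor Cd2ap had 112 ± 15.3 CPM and the adhesion gene Kirrel 144, 104 and 49.6 CPM, while Nphs1, nephrin, had 1.84 CPM. Neural genes reached 1 CPM in 2 of 12 cases, led by Tubb3 at 25.9 CPM, and bone and cartilage genes in 3 of 12, led by Spp1, osteopontin, at 146 ± 3.34 CPM. The part of any such cells in the results was not tested. Genes of the induced mesenchyme reached 1 CPM in every library in 5 of 17 cases, with Sfrp2, a secreted Wnt antagonist, at 188 ± 8.56 CPM and Wnt4, the signal that drives conversion to epithelium, at 0.363 CPM.

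**Figure D3:**
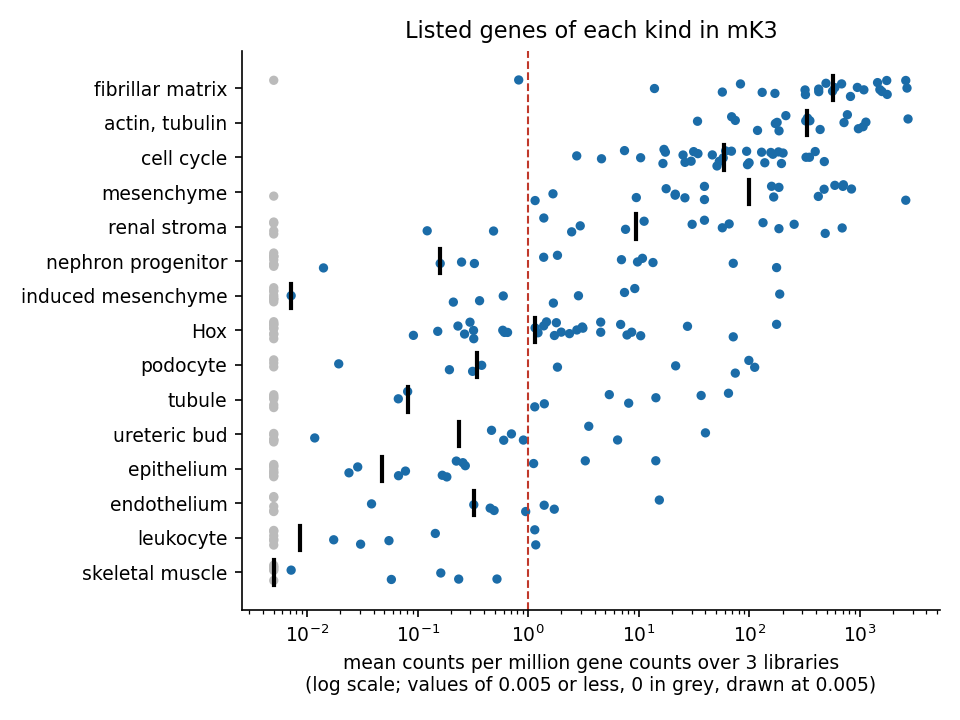
Mean level of each gene in 15 lists, in CPM of gene counts on a log axis, with 1 point per gene, a bar at the median of the list and a dashed line at 1 CPM. Matrix and cytoskeletal genes lie mostly above 100 CPM. The nephron progenitor, induced mesenchyme, podocyte, tubule, ureteric bud, epithelial, endothelial, leukocyte and skeletal muscle lists have medians below 1 CPM.

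Hox genes, which pattern the trunk and limbs, were unequal between their 4 clusters. HoxA genes summed to 146, 516 and 143 CPM, with 6 of 11 at 1 CPM or more in every library. HoxC genes summed to 57.7, 56.0 and 53.2 CPM, with 8 of 9 at that level, and HoxB genes to 24.9, 19.3 and 15.9 CPM, with 4 of 10. HoxD genes summed to 0.134, 0.158 and 0.164 CPM, with 8 of 9 at 0 in all 3 libraries. Of all protein-coding genes, 50.3% reached 1 CPM in every library and 31.3% were at 0 in all 3. The counts of HoxA and HoxB genes at 1 CPM lay near that share. In the open chromatin data, a separate assay, 5 peaks lay within the HoxA span, 4 in HoxB, 3 in HoxC and 0 in the 96.9 kb of HoxD. The widest was a peak of 2729 bp in HoxA.

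Hoxa11, a gene of the metanephric mesenchyme, set the unevenness of HoxA. Library 2 alone was high for it, while Hoxa10 was even and the antisense gene Hoxa11os, which overlaps Hoxa11 by 568 bp, had 47.1, 34.5 and 39.8 CPM. Without library 2 the level of Hoxa11 lay between 48.2 and 53.8 CPM. The cause was not tested.

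Signalling genes are given by role, as shares of reads that are not per length. For TGF-beta and BMP, 26 of 29 genes reached 1 CPM in every library (89.7%, against 50.3% of all protein-coding genes). The receptor genes Tgfbr3, Bmpr1a and Tgfbr2 had 749 ± 79.8, 477 ± 10.8 and 453 ± 32.0 CPM (SD, n = 3). The ligand genes Bmp4 and Tgfb2 had 20.8 and 17.5 CPM, and Bmp7 was at 0. Grem1, a secreted BMP antagonist, had 272 ± 16.8 CPM. For Wnt, 16 of 29 reached 1 CPM (55.2%, near the share of all protein-coding genes), led by the coreceptor Lrp6 at 409 ± 20.2 CPM. Axin2, a target that feeds back on the pathway, had 0, 0 and 9 counts. Of the nuclear effectors, Tcf7l1 had 27.0 CPM, Tcf7l2 11.1, Tcf7 2.36 and Lef1 1.69.

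Among FGF genes, 14 of 22 reached 1 CPM (63.6%, against 50.3% of all protein-coding genes). The ligand Fgf7 had 198 ± 13.9 CPM and the receptors Fgfr2 and Fgfr1 had 159 ± 36.0 and 40.5 ± 4.44. For Hedgehog, Gli3, which mostly acts as a repressor, had 508 ± 53.5 CPM, the receptor Ptch1 16.1 CPM and the target Gli1 0.223 CPM, and Shh was at 0. For Notch, Notch2 had 533 ± 72.8 CPM, and the targets Hes1, at 0.736, Hey1, at 0.0437, and Heyl, at 0, lay below 1 CPM. Igfbp7, a secreted binding protein, was the highest of 24 growth factor genes at 3166, 3128 and 3951 CPM, while Igf2, Igfbp2 and Igfbp5 were at 0.

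Genes of proliferating cells were present throughout: all 32 listed cell cycle genes reached 1 CPM in every library, against 50.3% of all protein-coding genes. Top2a had 507, 488 and 434 CPM, Mki67 had 205, 191 and 190, and Cdkn2a, which encodes the inhibitors p16Ink4a and p19Arf, had 421, 347 and 415. Glycolytic genes reached 1 CPM in 19 of 20 cases, led by Pgk1 at 879 ± 71.9 CPM. Gapdh, of the same list, was far lower at 16.1, 13.1 and 13.8 CPM. Whether reads shared with other copies of a gene were lost was not tested. Interferon-response genes did so in all 22 measured cases with a median of 145 CPM, and Bst2 had 422 ± 22.4 CPM and Usp18 410 ± 9.75. No interferon treatment is named in the labels. Of 18 actin and tubulin cytoskeleton genes, all 18 reached 1 CPM and 14 reached 100 CPM in every library. Of all protein-coding genes, 50.3% and 8.36% did so.

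By class, protein-coding genes held 87.6%, 86.1% and 84.9% of gene counts. The misc_RNA class of Ensembl held 6.28%, 7.62% and 9.17%, almost all from Rn7sk, the 7SK RNA that restrains transcription elongation, with 35230, 44001 and 51255 CPM, and from Rn7s1 and Rn7s2, near-identical copies of the signal recognition particle RNA between which reads may be split. Ribozyme RNAs held 1.03%, 1.43% and 1.75%, led by Rpph1, the RNA of RNase P, at 7664, 10986 and 12973 CPM. Library 1 was lowest and library 3 highest for each of these structured RNAs. Long noncoding genes held 2.92% ± 0.350 and mitochondrially encoded genes 0.277% ± 0.00342. The pseudogene Gm28437 had 280, 295 and 288 CPM, almost the values of the mitochondrial gene mt-Co3, with 279, 295 and 289. Whether mitochondrial reads were counted on other features was not tested, and any such reads are missing from the mitochondrial share.

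The reads were spread over many genes. Of 55558 gene features, 13508 reached 1 CPM in every library, 11004 of them protein-coding, and 28884 were at 0 in all 3. The 10 highest features held 14.9% ± 2.39 of gene counts and the 100 highest 27.7% ± 2.39, and 608 features held 50% of them.

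The highest protein-coding gene by reads was Ccnb1ip1, a ubiquitin ligase known from meiotic crossing over, with 33819, 50163 and 43920 CPM. RefSeq places it at chr14:50789249-50795728, with no other gene inside that span and Rpph1 starting 11719 bp beyond its end. The counted features carry Ensembl identifiers, and their spans can differ from those of RefSeq and were not checked here. Whether reads of another RNA were counted on Ccnb1ip1 was not tested. Its flanking genes Ttc5 and Parp2 had 35.6 ± 4.51 and 17.9 ± 0.766 CPM. Prss16, a serine protease known from the thymus, came next with 3388, 5842 and 5325 CPM, and the histone gene Hist1h2be had 2728, 3896 and 3851. In these 3 genes library 1 was the lowest. Histone cluster genes together held 2.02%, 2.97% and 3.20% of gene counts.

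The genes that followed were of several kinds. Fstl1, a secreted follistatin-like glycoprotein, had 3717, 3354 and 3305 CPM. Vmp1, a membrane protein of autophagy, had 3194, 3471 and 3352 CPM, and its span holds Mir21a. Eef1a1, the translation elongation factor, had 2860, 3265 and 2916 CPM, and Lgals1, galectin 1, had 2134, 2491 and 2674 CPM. Crtap, a partner of collagen prolyl 3-hydroxylase, had 2168, 2117 and 2116 CPM (CV 0.0139). Rnf213, Atrnl1, Hist1h4n, Plac8, Cltc, Itgb1, Col5a2 and Oxct1 were also among the 20 highest, between 1754 and 2448 CPM. Of the 50 highest protein-coding genes, 22 overlapped another RefSeq gene.

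The leading features of the class annotated as long noncoding were Gm26917 at 4774 ± 1020 CPM and Gm42418 at 1593 ± 332 CPM. The ribosomal RNA feature CT010467.1 had 966 ± 207 CPM. Which RNAs gave the reads on these features was not tested. Malat1, a nuclear RNA abundant in most cells, had 792, 233 and 60.4 CPM, so its libraries lay over 10-fold apart. Gm42743 had 110, 3059 and 151 CPM, with library 2 alone high. Neat1, the scaffold of paraspeckles, was more even with 218, 350 and 307 CPM.

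The spread between libraries depended on class. Among features with a mean of at least 100 counts, the median CV was 0.0931 for 243 mature miRNAs, 0.122 for 11765 protein-coding genes, 0.211 for 794 pseudogenes and 0.284 for 1764 long noncoding genes. The CV that counting error alone would give had medians of 0.0332, 0.0187, 0.0450 and 0.0426 in the same classes, all below the measured ones. At matched depth, 1000 to 10000 counts, the median was 0.0898 for miRNAs, 0.113 for protein-coding genes and 0.248 for long noncoding genes. At 10 to 100 counts that order turned, with 0.866 for protein-coding and 0.734 for long noncoding genes. The share with a CV above 1, among features with at least 100 counts, was 0.790% for protein-coding and 4.59% for long noncoding genes, and 0 of the 243 miRNAs.

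**Figure D4:**
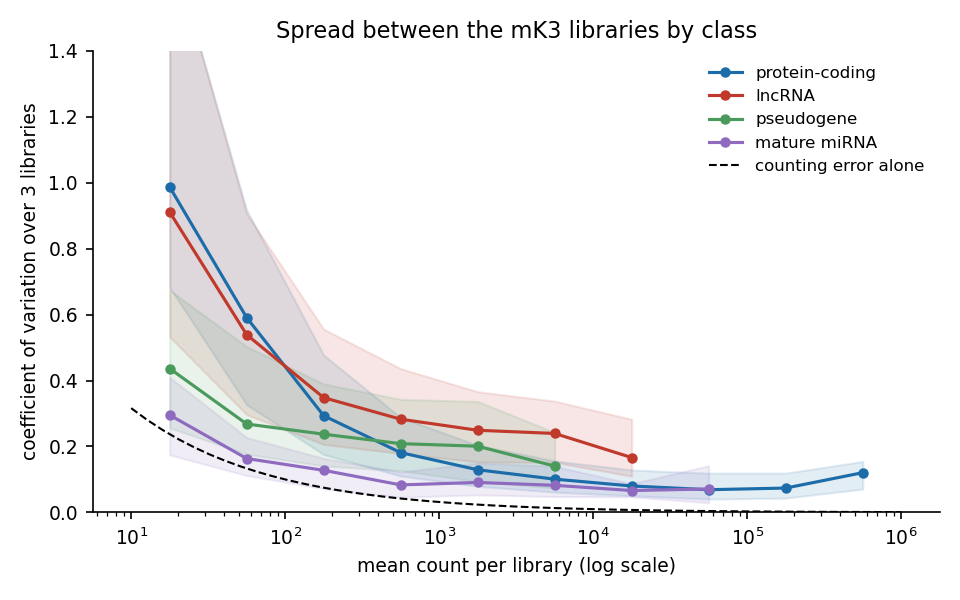
Median CV over the 3 libraries (line) with quartiles (band) against the mean count on a log axis, for 4 classes, with the CV that counting error alone would give dashed. Mature miRNAs lie lowest over most of the range, and from 100 counts on long noncoding genes lie above protein-coding genes.

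Across genes, log2(CPM + 1) values of library pairs had Pearson's r of 0.980 to 0.982 over 11765 protein-coding genes, 0.898 to 0.920 over 1764 long noncoding genes and 0.994 to 0.998 over 243 miRNAs. These are descriptions across features, which are not independent replicates. Library 1 was the highest of the 3 in 49.7% of protein-coding genes with at least 100 counts, library 2 in 25.8% and library 3 in 24.5%.

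Some features were present in 1 library and at 0 in another. Of features with at least 1000 counts in 1 library, 25 of 10118 gene features were at 0 in at least 1 other, and 0 of 120 miRNAs. Gm20431 had 0, 0 and 13642 counts and Gm20716 12933, 0 and 8708. Fgf14, a fibroblast growth factor homologous factor, had 2563, 1791 and 0. The mitochondrially encoded gene mt-Nd4, a subunit of complex I, had 99.2, 0.273 and 95.8 CPM. Its neighbours on the same genome were even, with mt-Nd5 at 131, 125 and 129 CPM and mt-Co1 at 1773, 1853 and 1821. The cause was not tested.

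Circular RNAs were counted in small numbers. Of 2250 names, 1748 were above 0 in a library, 426 in all 3 and 931 in 1 only. The highest, novel_circ_0001483, had 922, 1204 and 1063 counts, which was 8.16% ± 0.207 of circular RNA counts (SD, n = 3). It was followed by mmu_circ_0000604 with 373, 490 and 481 and mmu_circ_0001704 with 271, 346 and 340. The order of these 3 was the same in every library. Only 6 names had 100 counts or more in all 3 libraries. The table does not pair these names with host genes.

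Open chromatin was given as 22516 peaks from 1 library, without a replicate, of which 22477 lay on chromosomes 1 to 19, X and Y. The median peak was 346 bp wide and 4.25-fold enriched over background, with quartiles of 3.44 and 5.54, and 349 peaks reached 10-fold. The fold and the -log10 q are the authors' values for each peak. All peaks together covered 9.32 Mb.

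Most peaks lay away from gene starts, but the strongest lay near them more often. Of 21583 peaks on chromosomes with start sites in the RefSeq promoter table, 36.9% had the summit within 1 kb of a start (exact binomial 95% interval 36.3% to 37.6%, counting error only), and 20.4% within 100 bp. Peaks beyond 1 kb were split between gene spans, 36.8% of all, and the space outside any gene, 26.3%. The median fold was 5.05 within 100 bp of a start and 4.01 beyond 1 kb. In the lowest 10% of peaks by fold 25.4% were at starts, and in the highest 10% it was 60.7%. Start sites come from a table that does not hold every gene, so these shares are lower limits for start sites as such.

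The few strongest peaks mostly lay elsewhere. The highest fold, 33.5, was at chr16:57391366-57391771, within the spans of Cmss1 and Filip1l and 38299 bp from the nearest start in the table. The highest -log10 q, 2676, was at chr1:24612568-24613276, within 5 kb of the predicted genes Gm10222 and Gm10925, with a fold of 26.8. Next in fold were chr16:11143856-11144387 in Zc3h7a, at 26.4, and chr6:103649067-103649384 in Chl1, a neural adhesion gene, at 26.1. Of the 10 peaks highest in fold, 9 lay on chromosomes with start sites in the table and 1 had its summit within 1 kb of a start, at Gm15564. Among the 10 peaks highest in -log10 q, 3 sat together at chr8:123426230-123434139, the first of them within 5 kb of Tubb3, with folds of 5.21, 3.63 and 3.56. No list of problem regions was applied here, so whether these strongest peaks mark open chromatin was not tested.

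Peaks were uneven across chromosomes. Chromosome 15 had the most, 1516, or 195 per 100 RefSeq protein-coding genes, and chromosome 7 had 822, or 40.5 per 100. On chromosome 15, 29.6% of peaks lay within 1 kb of either end of a RefSeq gene, against 57.5% on chromosome 7. The X chromosome had 506 and the Y chromosome 2. Of genes at 1 CPM in every library with a start in the table, 80.1% had a start-site peak on chromosome 15 and 64.1% on chromosome 7, so the 2 chromosomes lay closer by this measure than by peaks per gene.

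The share of genes with a start-site peak was higher at higher RNA levels up to 10 to 100 CPM, and beyond that it lay between 80.0% and 83.4%. A peak lay within 1 kb of a start for 0.894% of 5147 protein-coding genes at 0 in all libraries (0.655% to 1.19%), for 18.3% of those at 0.1 to 1 CPM, for 59.8% at 1 to 10 CPM, for 80.0% at 10 to 100 CPM and for 83.4% at 100 to 1000 CPM. For the 51 genes at 1000 CPM or more it was 82.4% (69.1% to 91.6%), and that interval includes the values of the 2 groups below. Of genes with a start-site peak 93.3% reached 1 CPM in every library, and of those without 21.9% did. Among 6653 genes with both a peak and 1 CPM, Spearman's rho between peak fold and level was 0.0916 across genes, which share 1 library and are not independent.

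**Figure D5:**
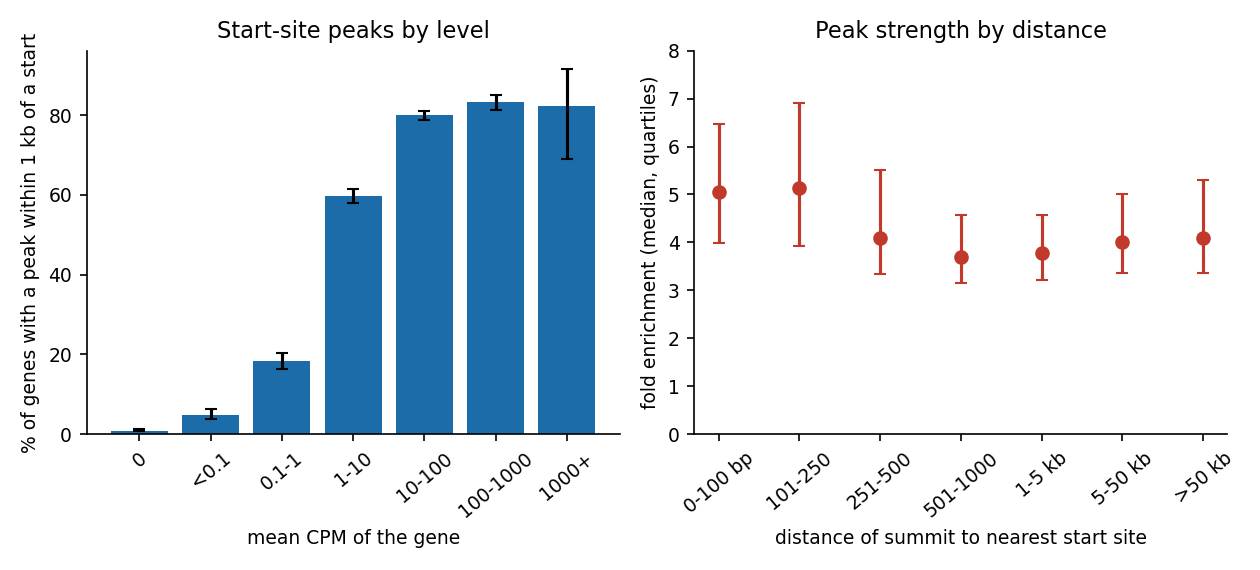
Left, the percentage of protein-coding genes with a peak summit within 1 kb of a start, by mean CPM, with exact binomial 95% intervals, and right, the median fold enrichment of peaks with quartiles by distance of the summit to the nearest start. The share rises from 0.894% for genes at 0 to 83.4% at 100 to 1000 CPM, and peaks within 250 bp of a start have median folds of 5.05 and 5.14.

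Several of the highest genes had no peak at a start in the table. Among the 500 highest protein-coding genes with a start site, 78 had none (15.6%, 12.5% to 19.1%). They were led by Ccnb1ip1, whose nearest peak was 10174 bp away, followed by Rnf213 at 34518 bp, Hist1h4n at 44791 bp and Plac8 at 4377 bp. Among the 10 highest of them S100a6, Sptbn1 and Ddr2 each had a peak within 1 kb of an end of the RefSeq gene span that the table does not hold as a start.

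Conversely, 71 of 5782 genes below 0.1 CPM in every library had a start-site peak, and for 23 of these another gene's start lay within 1 kb of the summit. The strongest was at Cdnf, a neurotrophic factor gene, with a fold of 10.2 and a summit also within 1 kb of the start of Hspa14. Among kidney genes, Six2, at 0.326 CPM, had 2 peaks of up to 4.16-fold at a gene end. Cxcr4, a chemokine receptor at 0 in all libraries, had one of 4.25-fold, and Wt1 and Sall1 had none within their spans or 50 kb to either side. Of the nephron progenitor genes, 4 of the 8 at 1 CPM and 3 of the 13 below it had a peak within 1 kb of a gene end, against 69.5% of all 10900 protein-coding genes at 1 CPM and 7.41% of 10342 below it. For fibrillar matrix genes these were 17 of 23, near the share of all genes, and 0 of 2. For renal stroma genes they were 8 of 14 and 1 of 6, and for general mesenchyme genes 11 of 18 and 1 of 2. Induced mesenchyme genes had such a peak in 2 of 5 and 1 of 12 cases. For epithelial genes they were 0 of 2 and 0 of 18, although 1 of the 2 at 1 CPM had a peak at a start site inside its span.

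At the markers, Thbs2 had a peak at chr17:14693979-14694433 with a fold of 5.70 and its summit 17 bp inside the gene from the start. Col1a2 had one at chr6:4505456-4505730 with a fold of 4.05 and the summit on the start itself. Lox had 2 peaks at a gene end with folds of up to 4.56. Prrx1, on the minus strand of chromosome 1, had no peak within 1 kb of its start and the nearest 1603 bp away, inside the gene. The RefSeq windows of 300 bases around the starts of Thbs2 (chr17:14694213-14694512, minus strand) and Col1a2 (chr6:4505368-4505667, plus strand) are shown 5′ to 3′ on the strand of the gene because both lie at a peak, with matches to the searched motifs in capitals.
Thbs2: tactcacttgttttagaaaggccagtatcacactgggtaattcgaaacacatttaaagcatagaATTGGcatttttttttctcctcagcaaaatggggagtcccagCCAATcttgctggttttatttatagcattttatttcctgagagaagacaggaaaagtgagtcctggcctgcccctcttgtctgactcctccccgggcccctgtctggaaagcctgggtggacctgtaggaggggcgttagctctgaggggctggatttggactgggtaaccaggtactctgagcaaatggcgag
Col1a2: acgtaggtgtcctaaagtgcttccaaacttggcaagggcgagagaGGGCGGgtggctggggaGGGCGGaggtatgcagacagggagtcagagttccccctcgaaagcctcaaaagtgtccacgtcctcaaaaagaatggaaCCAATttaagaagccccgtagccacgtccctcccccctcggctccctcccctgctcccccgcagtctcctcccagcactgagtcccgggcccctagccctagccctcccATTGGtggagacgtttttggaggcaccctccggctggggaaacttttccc

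The 7 motifs searched are given with the share of all 20483 windows of protein-coding genes that held them. The TATA box core TATAAA, searched on the strand of the gene, was in 8.12% of windows. All others were searched on both strands. The GC box GGGCGG, which Sp factors bind, was in 47.5% and the NF-Y box CCAAT in 38.0% of them. The AP-1 site TGACTCA was found in 4.73% and the TEAD core GGAATG in 13.3% of the windows. The Ets core with its flanks, GGAAGT, was found in 25.2% and the cyclic AMP response element TGACGTCA in 2.31%. Thbs2 held 2 matches to CCAAT, 1 on each strand, and Col1a2 held 2 to GGGCGG and 2 to CCAAT. The GC box was in 70.8% of the windows with a peak and in 31.6% of those without. CpG content separated them as well: the ratio of observed to expected CpG had a median of 0.802 in windows with a peak and 0.309 in those without. A peak was present in 3.52% of windows with a ratio under 0.2 and in 70.9% of those over 0.8. Thbs2, with a ratio of 0.230, had a peak in a range where 12.3% of windows had one. Col1a2 had a ratio of 0.470, in a range where 37.8% had one. These matches describe the letters only.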

How the data were processed

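The counts of the 3 mK3 RNA libraries are whole numbers per feature as the authors deposited them, not normalized. The deposited peak list gives each peak's fold enrichment (a ratio), its -log10 q and its summit offset (another number, in bases) as the authors' peak caller wrote them, by the column order of the format. Build mm10 and the programs MACS3, deepTools, bedtools, SAMtools, Bowtie2, HTSeq 2.0.2 and STAR 2.7.10a are named, per the submitters' processing notes, with no role for each. The counting of miRNAs and circular RNAs, the handling of strand and shared reads, which decides how overlapping genes are split, and the caller's thresholds: not given in the sources used here.

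CPM were computed per class total in Python 3.11.15 with pandas 2.3.3 and SciPy 1.17.1, and TMM factors with edgeR 4.0.16 in R 4.3.3. No test was run, since 1 line is described. Of 11004 protein-coding genes at 1 CPM, 10911 matched RefSeq (GRCm38.p6) by symbol or synonym and 8792 (79.9%) had a start site there; 951 of 1196 miRNA names matched. Start-site peaks had a summit within 1000 bp. Distances were checked on planted summits, and CVs on many simulated draws per gene at high counts. That check does not show how a CV over 3 libraries behaves. Named genes are the 20 highest protein-coding genes, the 10 highest long noncoding genes, 5 highest of other classes, 20 highest miRNAs and 5 highest circular RNAs, the markers, the 4 highest and the defining zero members of 39 lists, the most variable genes, the 10 strongest peaks, the 10 highest genes without a start-site peak and the 10 strongest start-site peaks at genes under 0.1 CPM; a selection is printed, and 1 of the 20 highest protein-coding genes and a few list members are not reported here. The members and lists were chosen with earlier results of these data known, and genes outside the rule (list members of lower rank, features at 0 in 1 library, neighbours) were named after their values were seen. The rule's 20 highest genes per kb were not computed.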

Additional observations from a re-analysis of the deposited data

How the results depend on the processing

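The number of genes at 1 CPM kept within 1.5 times of 13508 under all 7 alternatives (9922 to 14783), and the shares held by protein-coding genes, by the 100 highest genes and by the 10 highest miRNAs moved by less than their SD under all 4 alternatives each. The median CV of protein-coding genes, 0.122, was 0.144 with a mean of at least 10 counts, 0.101 with at least 1000, and 0.0825 to 0.108 without 1 library, lowest without library 1. The start-site share of peaks, 36.9%, was 32.7% within 500 bp, 40.02% within 2 kb, 46.5% for peaks with -log10 q of at least 10, and 41.7% with either end of any RefSeq gene. The share of genes at 1 CPM with a start-site peak, 75.7%, was 72.4% within 500 bp, 77.6% within 2 kb, 52.9% for peaks with -log10 q of at least 10, 79.5% at 5 CPM, 81.4% at 10 CPM and 69.5% with either gene end; leaving out 1 library gave 75.2% to 75.4%. The median fold, 4.25, was 5.56 at -log10 q of at least 10. The peak-free share of the 500 highest genes, 15.6%, was 21.2% within 500 bp. The gene-end alternatives were chosen after seeing the data. Ranks per kb were not run, because no transcript lengths were used here. No paired analysis was possible because no result comes from a test between groups. The ATAC-seq values rest on 1 library, and the depth of that library is not known.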

Other observations

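Of 21 imprinted genes, 8 reached 1 CPM in every library (38.1%, against 50.3% of all protein-coding genes). Another 8 were at 0 in all 3 (38.1%, near the 31.3% of all protein-coding genes). Grb10, an adaptor that dampens growth factor receptors, had 637, 557 and 542 CPM and Igf2r, the receptor that clears Igf2, 458, 357 and 380 CPM, with library 1 highest in both. Peg10 had 46.2 ± 10.9 CPM (SD, n = 3). H19, Igf2, Dlk1, Meg3, Ndn and Snrpn were among those at 0. Of the sex chromosome genes, Ddx3y, Uty, Kdm5d and Eif2s3y of the Y chromosome were at 0, Xist had 0.0827 CPM, and the X-linked genes Eif2s3x and Kdm6a had 256 ± 11.2 and 129 ± 5.98 CPM. The peak list had 2 peaks on the Y chromosome.

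The co-activator Wwtr1 (Taz) had 976 ± 55.3 CPM and Yap1 112 ± 14.6, and their target Ankrd1 had 89.2 ± 6.17 and Ccn2 68.5 ± 3.03. The contractile gene Acta2, smooth muscle actin, had 497, 549 and 517 CPM, while Myh11 and Des, of mature muscle cells, had 0.799 and 0.849 CPM. Runx2, a factor of bone, had 19.3, 70.7 and 66.9 CPM, with library 1 alone low.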
